A study of Mus musculus with 35 samples.

Results

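The 39 protein-coding genes of the 4 mouse Hox clusters were followed through a reprogramming time course of embryonic fibroblasts, in 35 RNA sequencing libraries. They were chosen by name, as every protein-coding gene whose symbol is Hox followed by a, b, c or d and a number, out of 54752 genes in each deposited table; antisense and other non-coding transcripts of the clusters were left out. JEGS cells, the complete set, received retroviruses for Jdp2, Esrrb, Glis1 and Sall4 and were sampled on days 2, 4 and 6, with 3 libraries. The arms without Esrrb, without Glis1, without Jdp2 and without Sall4 each received the other 3 factors and have 8 libraries each, 1 for every day from day 0 to day 7. All arms share the same starting cells, passage 2 fibroblasts from mid-gestation embryos, whose fathers carried an Oct4-GFP reporter allele on a CBA/CaJ × C57BL/6J background and whose mothers were mice of the 129 strain. The substrain number in that label counts up from library to library and was not used. Day 0 follows 48 hours of infection, after which the medium was changed to iCD3 with Rock inhibitor. Several embryos may have been pooled, which the labels do not state, and a treatment label that names all 4 factors for every library contradicts the sample titles, from which the arms were taken. No arm has more than 1 library of a day. The 8 libraries of an arm may all come from 1 infected culture, so p-values measure the spread between libraries around the day effects and not the spread between cultures.

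Hox genes encode homeodomain transcription factors that give cells their position along the head-to-tail axis of the body and along the limb. Within a cluster the genes lie in the order in which they are used: paralog groups with low numbers are expressed towards the head and early, those with high numbers towards the tail and later, and the posterior HoxA and HoxD genes also pattern the limb from shoulder to digits. Polycomb proteins keep the clusters silent in pluripotent cells, and fibroblasts retain a Hox pattern that reflects where in the body they came from. The HoxA cluster holds 11 of the 39 genes on chromosome 6, HoxB holds 10 on chromosome 11, HoxC holds 9 on chromosome 15 and HoxD holds 9 on chromosome 2.

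Some posterior HoxD genes went opposite to the posterior HoxA genes without Esrrb and without Sall4. They were Hoxd10 to Hoxd13 without Esrrb, and Hoxd10 and Hoxd12 without Sall4. Promoter windows are therefore shown of Hoxd10 to Hoxd13, of the trunk gene Hoxd8 and, for HoxA, of Hoxa13 alone. They run from 250 bases before to 50 bases after the annotated start. The windows were taken from RefSeq on build GRCm38.p6 and are read 5′ to 3′ on the gene's strand. RefSeq windows were found for 22 of the 39 members. Capitals mark matches, on either strand and with no overlap among those shown, to 4 short motifs: AAGGTCA, the half-site bound by estrogen-related receptors such as Esrrb; TGANTCA, the AP-1 site, and GACGTCA, the cyclic AMP response element core, both bound by dimers of the Jdp2 family; and TGGGGGG, a G run of the type bound by Glis zinc fingers. No motif was searched for Sall4.
Hoxd8, chr2:74704365-74704664, plus strand: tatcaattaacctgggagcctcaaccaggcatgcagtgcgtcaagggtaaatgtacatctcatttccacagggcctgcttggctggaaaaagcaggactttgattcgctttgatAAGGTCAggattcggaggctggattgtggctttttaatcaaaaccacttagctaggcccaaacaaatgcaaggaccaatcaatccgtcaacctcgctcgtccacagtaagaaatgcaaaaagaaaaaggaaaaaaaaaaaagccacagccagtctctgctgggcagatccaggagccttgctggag
Hoxd10, chr2:74691641-74691940, plus strand: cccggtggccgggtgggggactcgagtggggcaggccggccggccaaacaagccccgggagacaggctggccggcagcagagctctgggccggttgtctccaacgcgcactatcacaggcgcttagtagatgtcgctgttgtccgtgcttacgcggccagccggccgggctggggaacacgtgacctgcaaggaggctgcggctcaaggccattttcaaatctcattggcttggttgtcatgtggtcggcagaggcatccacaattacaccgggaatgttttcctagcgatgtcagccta
Hoxd11, chr2:74679308-74679607, plus strand: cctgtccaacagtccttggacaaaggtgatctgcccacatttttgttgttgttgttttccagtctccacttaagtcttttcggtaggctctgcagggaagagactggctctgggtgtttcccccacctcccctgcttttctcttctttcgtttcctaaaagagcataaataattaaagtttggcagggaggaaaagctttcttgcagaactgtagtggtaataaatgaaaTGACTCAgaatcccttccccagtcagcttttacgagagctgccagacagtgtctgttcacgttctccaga
Hoxd12, chr2:74674763-74675062, plus strand: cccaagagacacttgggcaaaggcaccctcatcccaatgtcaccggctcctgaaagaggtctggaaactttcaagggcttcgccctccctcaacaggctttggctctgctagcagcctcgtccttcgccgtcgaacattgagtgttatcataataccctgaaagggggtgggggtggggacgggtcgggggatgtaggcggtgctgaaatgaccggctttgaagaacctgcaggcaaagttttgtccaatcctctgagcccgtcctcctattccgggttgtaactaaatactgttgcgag
Hoxd13, chr2:74667975-74668274, plus strand: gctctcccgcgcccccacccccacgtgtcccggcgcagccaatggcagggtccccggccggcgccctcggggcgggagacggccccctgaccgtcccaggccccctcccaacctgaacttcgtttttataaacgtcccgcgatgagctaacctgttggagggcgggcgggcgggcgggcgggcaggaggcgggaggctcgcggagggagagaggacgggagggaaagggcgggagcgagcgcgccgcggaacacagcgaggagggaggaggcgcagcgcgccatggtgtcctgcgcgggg
Hoxa13, chr6:52260831-52261130, minus strand: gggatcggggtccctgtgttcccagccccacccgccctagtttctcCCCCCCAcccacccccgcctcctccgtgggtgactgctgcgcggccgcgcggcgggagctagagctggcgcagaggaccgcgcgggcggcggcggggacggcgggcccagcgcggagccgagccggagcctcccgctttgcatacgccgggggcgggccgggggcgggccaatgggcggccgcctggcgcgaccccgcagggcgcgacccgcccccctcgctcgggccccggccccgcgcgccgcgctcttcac

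Matches in these windows were few. The Esrrb half-site occurred in 1 of the 22 member windows, that of Hoxd8, 136 bases before its start, against 4.72% of all 32851 promoter windows. The AP-1 site occurred in 1 member window, that of Hoxd11, 20 bases before the start, against 7.81% of all windows. The response element core occurred in 0 of the 22, against 3.21% of all windows. The G run occurred in 4 of the 22, those of Hoxa2, Hoxa10, Hoxa13 and Hoxb1, against 8.47% of all windows. Of the 6 windows shown, those of Hoxd10, Hoxd12 and Hoxd13 held none of the 4 motifs, and those of Hoxd8, Hoxd11 and Hoxa13 held 1 each.

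The libraries held between 1266379 and 3608456 expected counts, and 1 count was worth 0.277 to 0.79 CPM (counts scaled to the library total). Depth differed between arms, with medians of 1456264 counts for JEGS, 1586458 without Esrrb, 2066218 without Glis1, 2197907 without Jdp2 and 2652750 without Sall4. The clusters gave 552 to 1856 counts per library, so single low members rest on few reads. Levels are given as TPM, transcript counts scaled for gene length and library total. Each omitted factor was low in its own arm. Esrrb averaged 19.3 ± 21.2 TPM without Esrrb, Glis1 averaged 2.0 ± 3.11 TPM without Glis1, Jdp2 averaged 19.8 ± 10.9 TPM without Jdp2 and Sall4 averaged 1.75 ± 2.37 TPM without Sall4 (SD, n = 8 each). The delivered factors themselves were not at the same level in the arms that received them. Esrrb averaged 1880 ± 874 TPM in JEGS (SD, n = 3), 5900 ± 1030 TPM without Glis1, 2010 ± 795 TPM without Jdp2 and 6570 ± 683 TPM without Sall4 (SD, n = 8 each), and the part of this level in the results was not tested. Each of 14 fibroblast markers had counts in every arm, and their summed level ran from 1980 to 2100 TPM in JEGS, 1550 to 8240 TPM without Esrrb, 1330 to 9260 TPM without Glis1, 3390 to 10400 TPM without Jdp2 and 2900 to 13900 TPM without Sall4. By list, 4 of the 14 fibroblast markers were higher and 4 lower without Esrrb, 4 and 4 without Glis1, 3 and 6 without Jdp2, and 7 and 2 without Sall4, each against the other 3 leave-out arms. Of 8 epithelial markers 3 were higher and 1 lower without Esrrb, 1 and 3 without Glis1, 7 and 0 without Jdp2, and 0 and 6 without Sall4. Of 8 endothelial markers 4 were higher and 1 lower without Esrrb, 1 and 3 without Glis1, 6 and 0 without Jdp2, and 0 and 4 without Sall4. Of 8 pluripotency markers, a list that holds the delivered factor Esrrb, 1 was higher and 1 lower without Esrrb. The counts were 1 and 1 without Glis1, 8 and 0 without Jdp2, and 2 and 3 without Sall4. In JEGS, 7 were higher and 0 lower than in the mean of the leave-out arms, against 3.21% and 0.849% of all genes. Macrophage, neural and muscle markers had 0 to 3 calls in either direction in each arm. Of all genes tested, 20.9% were higher and 21.9% lower without Esrrb, and 20% and 16.3% without Glis1. These shares were 14.4% and 9.13% without Jdp2, and 22.3% and 19.5% without Sall4. The part of these cell types in the Hox values was not tested. The labels name more than 1 library kit without assigning libraries to them, so kit and arm cannot be told apart.

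The fibroblasts held RNA of all 4 clusters. Counts were found for 26 of the 39 members in all 35 libraries, and no member was at 0 in every library. The mean level over all libraries was 10 TPM or more for 16 members, between 1 and 10 TPM for 19 and under 1 TPM for 4, which are Hoxb1, Hoxc12, Hoxd1 and Hoxd3. Hoxa10, a posterior gene with a role in limb and uterus, had the highest mean level with 34.7 TPM, followed by Hoxc6 with 27.1 TPM and Hoxa7 with 22.2 TPM, genes of the thoracic region. The highest mean levels in the other clusters were those of Hoxd11 with 18.4 TPM and Hoxb9 with 17 TPM. The sum over all 39 members was 362, 265 and 330 TPM in the JEGS libraries of days 2, 4 and 6. It ran from 305 to 563 TPM without Esrrb, with a median of 469, from 303 to 812 TPM without Glis1, with a median of 460, from 233 to 519 TPM without Jdp2, with a median of 285, and from 217 to 395 TPM without Sall4, with a median of 262. The highest sum, 812 TPM, was that of the day 0 library without Glis1, against 383, 519 and 395 TPM on day 0 without Esrrb, without Jdp2 and without Sall4, so that library stood apart before the first day in induction medium. Without it, the calls of Hoxa2 in the arm without Glis1, of the day slopes of Hoxa3 and Hoxd8 and of the slope difference of Hoxd10 were lost. In RNA from whole cultures, fewer cells that express a gene and less RNA per cell cannot be told apart.

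**Figure D1:**
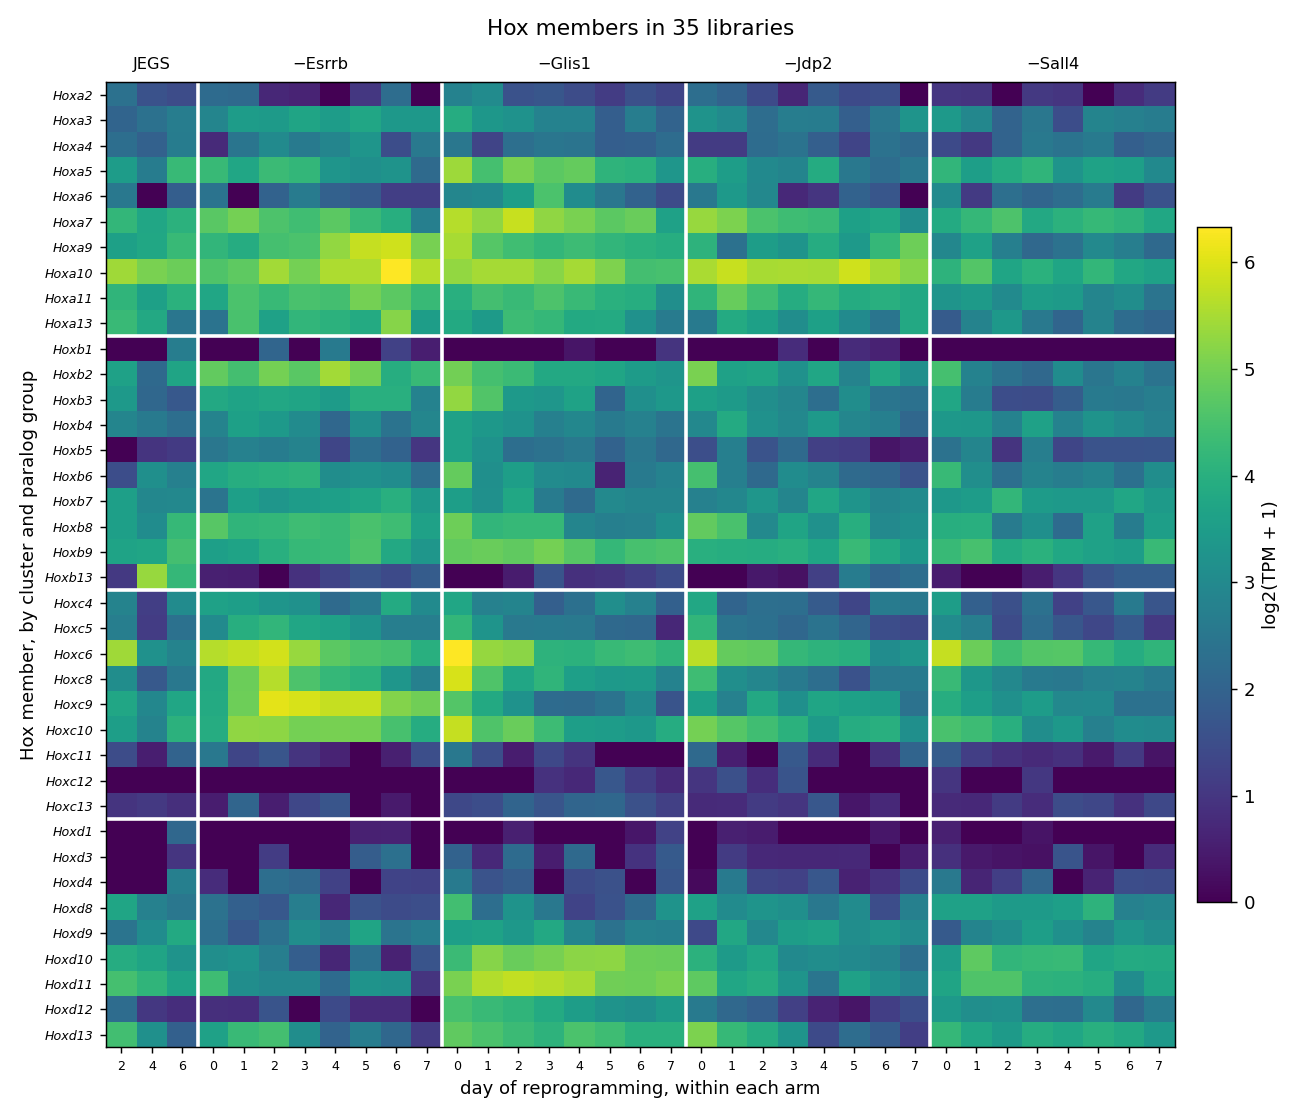
Level of the Hox members described here (rows, ordered by cluster and paralog group) in each of the 35 libraries (columns, grouped by arm and ordered by day), as log2(TPM + 1) on a colour scale that starts at 0. Hoxd10 and Hoxd11 are brightest in the arm without Glis1, Hoxc9 and late Hoxa9 in the arm without Esrrb, and Hoxb13 in the JEGS libraries of days 4 and 6.

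Each leave-out arm was set against the mean of the other 3, with day as a factor, in edgeR's quasi-likelihood F test. JEGS is not in this fit, so each contrast sets 1 omission against 3 others and not against the complete set. A gene counts as called at a Benjamini-Hochberg adjusted p under 0.05 over all 18135 genes tested, of which 38 are members; Hoxd1 did not pass the filter on low counts. The 4 contrasts share libraries and sum to 0, so they are read side by side. Without Esrrb 22 members were called, against 42.8% of all genes; 16 were higher, against 20.9% of all genes, and 6 lower, against 21.9%. Without Glis1 16 were called, against 36.3% of all genes; 15 were higher, against 20%, and 1 lower, against 16.3%. Without Jdp2 7 were called, against 23.5% of all genes; 1 was higher, against 14.4%, and 6 lower, against 9.13%. Without Sall4 17 were called, against 41.8% of all genes; 4 were higher, against 22.3%, and 13 lower, against 19.5%. Calls were thus common across the genome in all 4 contrasts. The median change of the members was 0.23 without Esrrb, 0.35 without Glis1, -0.30 without Jdp2 and -0.23 without Sall4 on the log2 scale, against -0.01, 0.01, 0.01 and 0.00 for all genes tested. Hoxc8 and Hoxd12 were called in all 4 contrasts. The 9 members called in none were Hoxa4, Hoxb4, Hoxb6, Hoxb13, Hoxc11, Hoxc12, Hoxd4 and Hoxd9, and Hoxd1, which was not tested. How many of all genes were called in all 4 contrasts or in none was not counted.

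The posterior HoxD genes, which pattern the forearm and digits, were high without Glis1 and low without Esrrb, with 4 of the 5 genes of groups 9 to 13 called higher and 4 of the 5 called lower in these arms. Hoxd12 ran from 7.87 to 21.5 TPM without Glis1, with a median of 12.1. It ran from 0 to 2.12 TPM without Esrrb, with a median of 0.75, from 0.29 to 5.1 TPM without Jdp2, with a median of 1.56, and from 3.32 to 9.79 TPM without Sall4, with a median of 6.02. Every library without Glis1 was above every library without Esrrb or Jdp2, and the ranges without Glis1 and without Sall4 overlapped. Against the other 3 arms, Hoxd12 was higher by 2.72 ± 0.22 without Glis1 (log2 change ± SE, edgeR adjusted p = 1e-10) and by 1.22 ± 0.24 without Sall4 (adjusted p = 0.000169). The change was -2.77 ± 0.35 without Esrrb (adjusted p = 2.8e-07) and -1.16 ± 0.30 without Jdp2 (adjusted p = 0.00454).

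Hoxd10 and Hoxd11 had the same order of arms. Hoxd10 ran from 18.9 to 37.2 TPM without Glis1 with a median of 30.5, 10.3 to 26 TPM without Sall4 with a median of 15.3, 3.97 to 15.7 TPM without Jdp2 with a median of 7.31, and 0.52 to 8.4 TPM without Esrrb with a median of 3.38. Neighbours in this order overlapped. The log2 change of Hoxd10 was 2.07 ± 0.22 without Glis1 (edgeR adjusted p = 9.62e-09), 0.79 ± 0.23 without Sall4 (adjusted p = 0.00623) and -2.21 ± 0.30 without Esrrb (adjusted p = 8.94e-07). Hoxd11 ran from 29.6 to 53.1 TPM without Glis1 with a median of 38.3, above every library of the other leave-out arms, whose highest was 26 TPM. It ran from 7.48 to 23.2 TPM without Sall4 with a median of 15.1, 4.52 to 26 TPM without Jdp2 with a median of 9.92, and 0.94 to 19.4 TPM without Esrrb with a median of 7.13. Its log2 change was 1.97 ± 0.22 without Glis1 (edgeR adjusted p = 2.22e-08) and -1.61 ± 0.28 without Esrrb (adjusted p = 3.9e-05).

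Hoxd13, the last gene of the cluster and the one that shapes the digits, differed between arms in level and in its course. It ran from 15.2 to 26.5 TPM without Glis1 with a median of 19.4, from 9.61 to 17.6 TPM without Sall4 with a median of 12.9, from 1.25 to 33.0 TPM without Jdp2 with a median of 6.26, and from 1.13 to 20.8 TPM without Esrrb with a median of 6.5. The arms without Jdp2 and without Esrrb held both high and low libraries, and the ranges of all 4 arms overlapped. Hoxd13 was higher by 1.19 ± 0.29 without Glis1 (edgeR adjusted p = 0.00148), and its change of -0.91 ± 0.33 without Esrrb (adjusted p = 0.0283) was no longer called in 7 of 40 alternatives, 6 of which left out 1 library of that arm. Those were the libraries of days 0, 3, 4, 5, 6 and 7, and the change over all 40 alternatives ran from -1.49 to -0.76. Hoxd8, a trunk gene in the middle of the cluster, ran from 5.89 to 16.1 TPM without Sall4 with a median of 10.5. It ran from 0.63 to 5.48 TPM without Esrrb with a median of 2.21, from 1.82 to 11.4 TPM without Jdp2 with a median of 7.3 and from 1.43 to 20.3 TPM without Glis1 with a median of 4.34, where the day 0 library was the highest. Its change was 1.42 ± 0.23 without Sall4 (edgeR adjusted p = 1.51e-05) and -1.47 ± 0.30 without Esrrb (adjusted p = 0.000205). Hoxd9, between them, was called in no arm, and Hoxd3 was called higher without Glis1 with levels of 0 to 3.62 TPM, a call that was lost on days 4 to 7 alone and with limma on log2(TPM + 1).

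**Figure D2:**
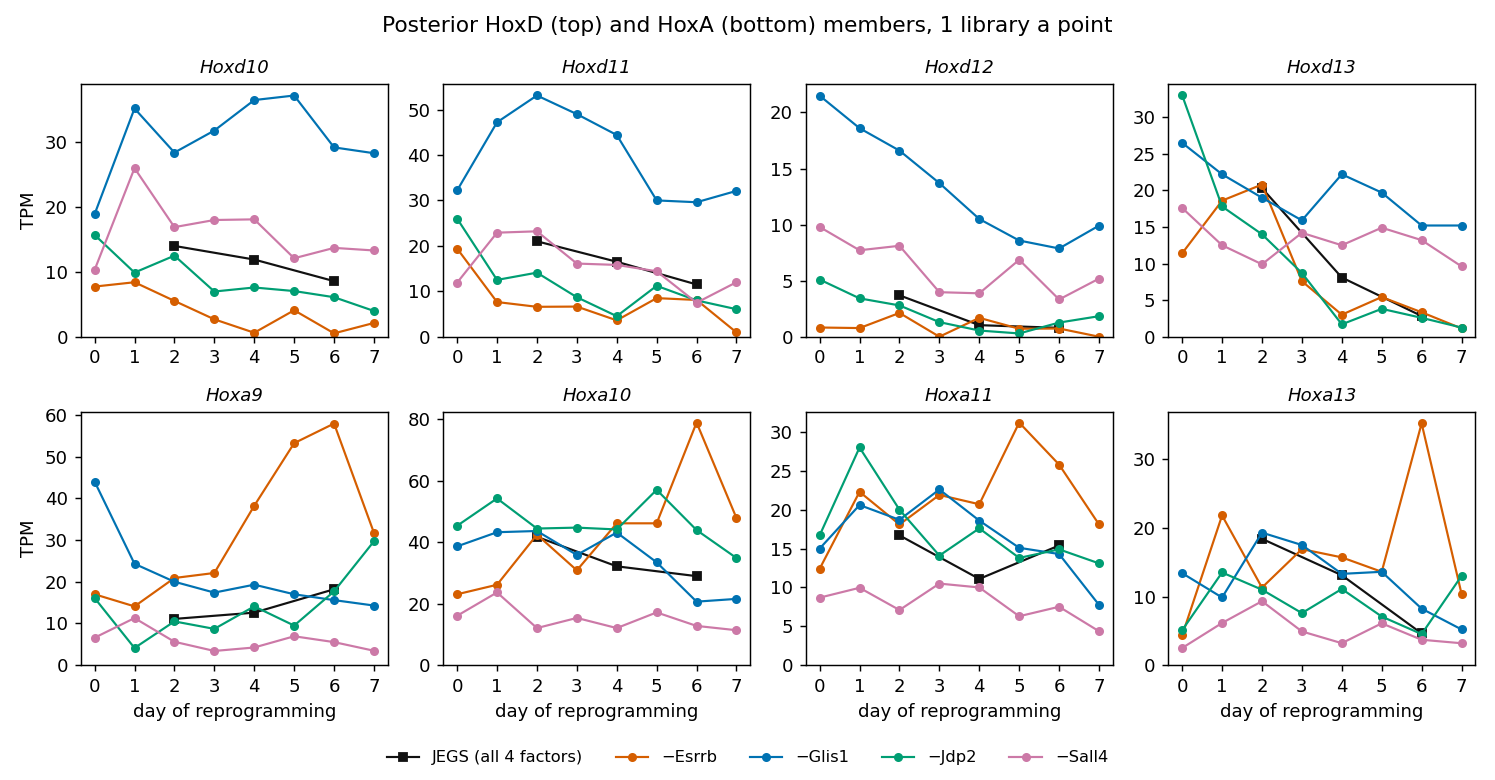
Level in TPM of posterior HoxD members (top) and posterior HoxA members (bottom) against day of reprogramming, 1 library a point, joined within an arm. Hoxd11 without Glis1 stays between 29.6 and 53.1 TPM while all other leave-out libraries are at 26 TPM or less, and the 4 HoxA members have their lowest medians in the arm without Sall4.

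Posterior HoxA genes, whose products also pattern the limb and the urogenital tract, showed another order, with the arm without Sall4 lowest. All 4 of them were called lower without Sall4 and all 4 higher without Esrrb. The mean set against the arm without Esrrb holds the low arm without Sall4. In JEGS against the arm without Esrrb, 0 of the 4 were called, where 6.63% of all genes were called. In JEGS against the arm without Sall4, 2 of the 4 were higher in JEGS, against 11.9% of all genes. Hoxa9 ran from 3.42 to 11.3 TPM without Sall4 with a median of 5.58, from 14.1 to 57.9 TPM without Esrrb with a median of 26.9, from 14.3 to 44.0 TPM without Glis1 with a median of 18.4, and from 4.13 to 29.7 TPM without Jdp2 with a median of 12.3. Every library without Sall4 was below every library without Esrrb or Glis1. Its log2 change was -1.50 ± 0.28 without Sall4 (edgeR adjusted p = 7.67e-05) and 1.27 ± 0.24 without Esrrb (adjusted p = 7.26e-05). Hoxa10 ran from 11.4 to 23.7 TPM without Sall4 with a median of 14.1, against medians of 44.4 TPM without Esrrb, 37.3 TPM without Glis1 and 44.7 TPM without Jdp2. The lowest of those other libraries, 20.7 TPM, overlapped with the highest without Sall4. Its change was -1.33 ± 0.18 without Sall4 (edgeR adjusted p = 1.19e-06), 0.58 ± 0.17 without Esrrb (adjusted p = 0.00565, not called without the day 6 library of that arm, with a lowest value of 0.35 over the alternatives) and 0.49 ± 0.16 without Jdp2 (adjusted p = 0.0255, not called in 6 of 40 alternatives).

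Hoxa13, the HoxA counterpart of Hoxd13 in digits and genital tissue, ran from 2.51 to 9.32 TPM without Sall4 with a median of 4.31. It ran from 4.34 to 35.2 TPM without Esrrb with a median of 14.6, from 5.21 to 19.3 TPM without Glis1 with a median of 13.3 and from 4.53 TPM upwards without Jdp2 with a median of 9.31 and no library above the highest without Glis1. The ranges overlapped, and the change was -1.45 ± 0.24 without Sall4 (edgeR adjusted p = 1.76e-05). Hoxa11 changed by -1.08 ± 0.15 without Sall4 (adjusted p = 1.89e-06) and by 0.59 ± 0.14 without Esrrb (adjusted p = 0.0011). Members of 1 paralog group were thus called in opposite directions: without Esrrb, Hoxa10, Hoxa11 and Hoxa13 were higher while Hoxd10, Hoxd11 and Hoxd13 were lower, and without Sall4, Hoxa10 was lower while Hoxd10 was higher. The ratio of the summed HoxD to the summed HoxA level over paralog groups 9 to 13 was 0.551 to 0.722 in JEGS. It was 0.0862 to 0.761 without Esrrb, 0.991 to 1.87 without Glis1, 0.225 to 0.979 without Jdp2 and 1.47 to 2.13 without Sall4, so all 16 libraries of the arms without Glis1 and without Sall4 were above all other libraries.

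**Figure D3:**
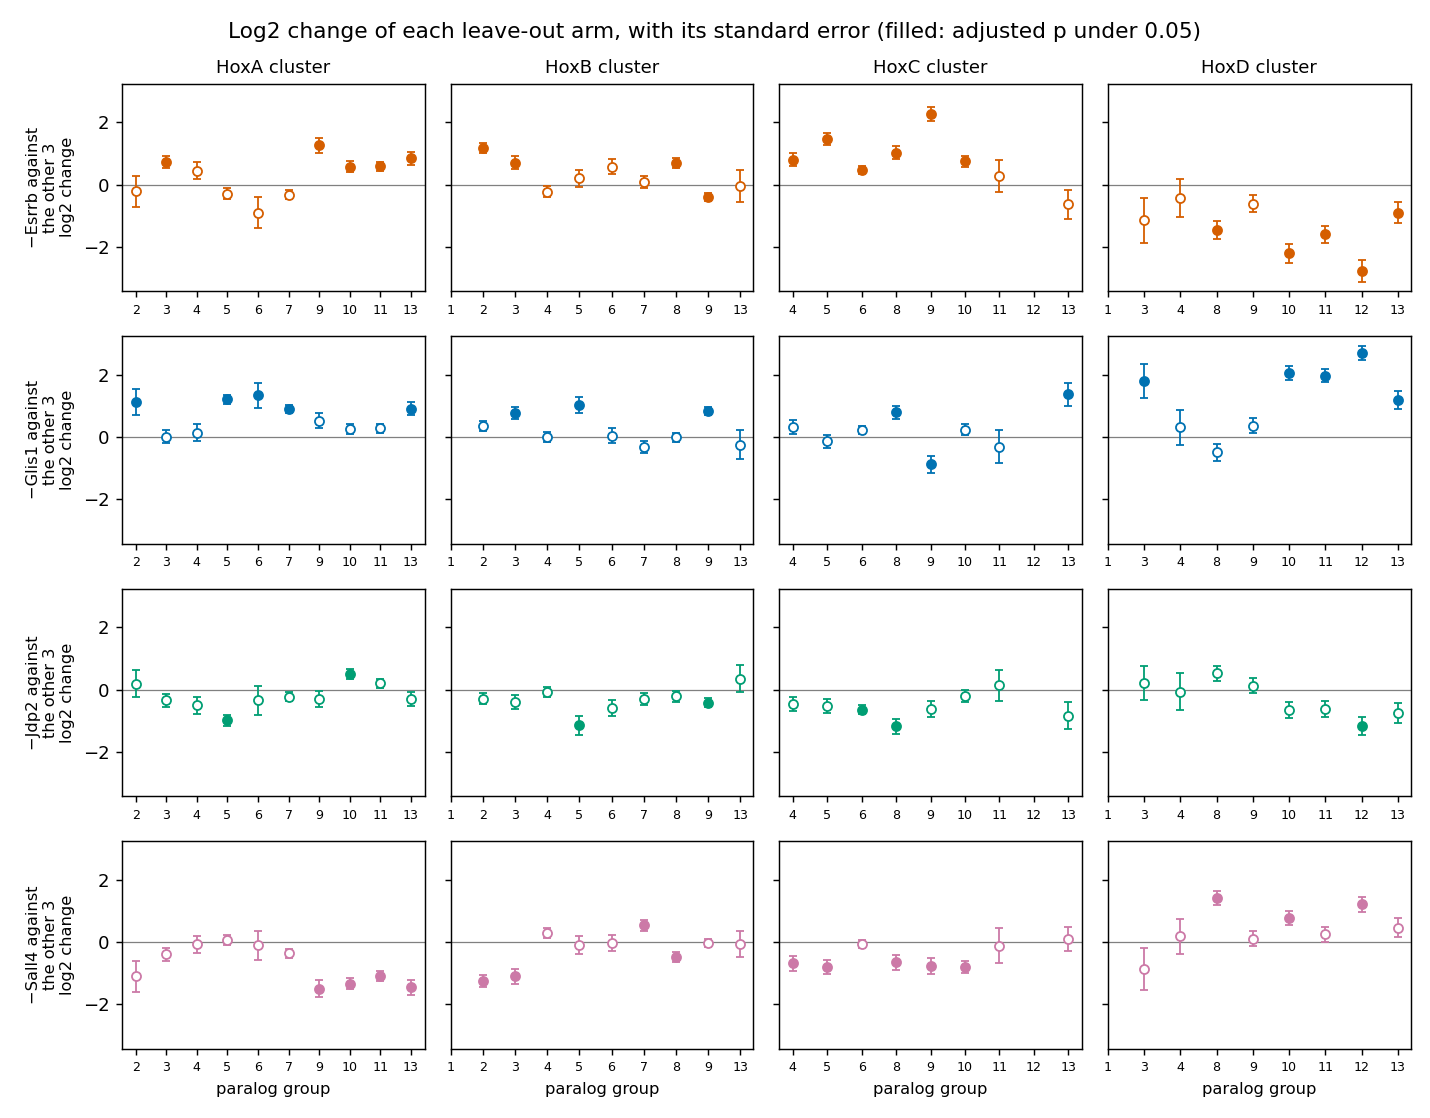
Log2 change of each leave-out arm against the mean of the other 3 (rows) for the members described in each cluster (columns), in the order of paralog groups, with bars of 1 SE; filled points passed an adjusted p of 0.05, and Hoxd1, Hoxb1 and Hoxc12 have no point, Hoxb1 being at 0 in every library without Sall4 and Hoxc12 in every library without Esrrb. Without Esrrb the HoxC members of groups 4 to 10 lie above 0 and Hoxd8 and Hoxd10 to Hoxd13 below it, and without Sall4 the HoxA members of groups 9 to 13 lie between -1.50 and -1.08.

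HoxC genes of the trunk were highest without Esrrb, where 6 of 9 were called higher and 0 lower, all of groups 4 to 10. Hoxc9, a thoracic gene, had 13.7, 29.5, 65.7, 60.2, 53.3, 54.2, 34.3 and 30.0 TPM on days 0 to 7 without Esrrb. From day 1 on it was at most 13.4 TPM in any other leave-out library, so the arms did not overlap after day 0. Its median was 43.8 TPM without Esrrb, against 5.7 TPM without Glis1, 10.7 TPM without Jdp2 and 7.52 TPM without Sall4. Its log2 change was 2.26 ± 0.23 without Esrrb (edgeR adjusted p = 6.55e-09), -0.87 ± 0.27 without Glis1 (adjusted p = 0.0123) and -0.77 ± 0.26 without Sall4 (adjusted p = 0.0193, not called without its day 6 library, with values of -0.98 to -0.63 over the alternatives).

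Hoxc8 had a similar peak. It stood at 13.2, 28.8 and 48.0 TPM on days 0, 1 and 2 without Esrrb and was back at 5.78 TPM on day 7. Without Glis1 it stood at 60.6 TPM on day 0 and ran from 6 to 22.9 TPM later, without Jdp2 it ran from 2.01 to 19.4 TPM with a median of 5.12, and without Sall4 it ran from 4.83 to 18.6 TPM with a median of 5.96. In each of these 3 arms day 0 was the highest. The change was 1.02 ± 0.22 without Esrrb (edgeR adjusted p = 0.000321), 0.80 ± 0.21 without Glis1 (adjusted p = 0.00369, not called on days 4 to 7 alone), -1.17 ± 0.24 without Jdp2 (adjusted p = 0.000643) and -0.65 ± 0.23 without Sall4 (adjusted p = 0.0253, not called in 4 of 40 alternatives). Hoxc10, a lumbar gene, ran from 14.1 to 37.6 TPM without Esrrb with a median of 30.9, against medians of 16.7 TPM without Glis1, 15.2 TPM without Jdp2 and 8.54 TPM without Sall4. Its change was 0.75 ± 0.18 without Esrrb (edgeR adjusted p = 0.000908, not called without the day term) and -0.79 ± 0.19 without Sall4 (adjusted p = 0.00112). Hoxc5 ran from 5.48 to 16.9 TPM without Esrrb with a median of 9.83, against medians of 4.9 TPM without Glis1, 3.69 TPM without Jdp2 and 2.34 TPM without Sall4, and changed by 1.46 ± 0.20 without Esrrb (edgeR adjusted p = 9.76e-07). The annotated locus of Hoxc5 overlaps those of Hoxc6, Hoxc8, Hoxc9 and Hoxc10, so reads in shared exons may have been divided between them. The same limit applies to Hoxa3, whose locus overlaps those of Hoxa4, Hoxa5 and Hoxa6, and to Hoxd3 and Hoxd4.

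Hoxb1 and Hoxb2, of the members nearest the head, were also higher without Esrrb. Hoxb2, a hindbrain gene, ran from 14.4 to 42.8 TPM without Esrrb with a median of 26.1, from 8.77 to 30.4 TPM without Glis1 with a median of 13.2, from 6.13 to 32.3 TPM without Jdp2 with a median of 11.7 and from 3.43 to 21.0 TPM without Sall4 with a median of 5.28. Its change was 1.18 ± 0.16 without Esrrb (edgeR adjusted p = 9.99e-07) and -1.24 ± 0.18 without Sall4 (adjusted p = 3.3e-06). Hoxb1 had 34 counts in all 35 libraries. It had counts in 4 of 8 libraries without Esrrb, at most 4.98 TPM, and no count in any library without Sall4. Against a floor of 3 counts over those 8 libraries, the other 3 arms together were at least 3.41-fold higher, and the call of Hoxb1 without Sall4 (edgeR adjusted p = 0.0411) was lost in 19 of 40 alternatives. Its call without Esrrb (adjusted p = 0.0198) was lost in 4 of 39, among them without the libraries of day 2, day 4 or day 6 of that arm.

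Thoracic HoxA genes were highest without Glis1. Hoxa7 ran from 11.4 to 54.4 TPM without Glis1 with a median of 35.1, against medians of 21.3 TPM without Esrrb, 19.0 TPM without Jdp2 and 16.1 TPM without Sall4, and changed by 0.91 ± 0.14 (edgeR adjusted p = 6.07e-06). Hoxa5, which is needed in lung and neck, had a median of 23.2 TPM without Glis1, against 10.6, 6.6 and 11.3 TPM without Esrrb, Jdp2 and Sall4. It changed by 1.21 ± 0.15 without Glis1 (edgeR adjusted p = 2.29e-07) and by -0.98 ± 0.18 without Jdp2 (adjusted p = 0.000141). Hoxb9, the highest HoxB gene, ran from 17.6 to 31.1 TPM without Glis1 with a median of 25.6, against medians of 14 TPM without Esrrb, 14.3 TPM without Jdp2 and 14.6 TPM without Sall4. Its change was 0.85 ± 0.12 without Glis1 (edgeR adjusted p = 2.74e-06). Hoxb5 ran from 0.29 to 5.65 TPM without Jdp2 with a median of 1.59, against medians of 4.29 TPM without Esrrb, 4.45 TPM without Glis1 and 2.1 TPM without Sall4. It changed by -1.15 ± 0.30 without Jdp2 (edgeR adjusted p = 0.00455, not called without the day term) and by 1.04 ± 0.26 without Glis1 (adjusted p = 0.00172). Hoxa2, Hoxa6, Hoxa13, Hoxb3 and Hoxc13 were also called higher without Glis1. Of these, Hoxa2 was lost in 9 of 40 alternatives, 6 of which left out 1 library (days 0, 1, 2, 3 and 7 without Glis1 and day 1 without Sall4), with changes of 0.69 to 1.31. Hoxa6 was lost on days 4 to 7 alone and without the day 3 library of that arm, Hoxb3 on days 4 to 7 alone, and Hoxa13 with limma.

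JEGS cells, compared on days 2, 4 and 6 with the same days of the leave-out arms, differed from their mean in 1 of the 37 members tested, against 4.06% of the 16603 genes tested in that fit, 3.21% higher and 0.849% lower; 6 members had an unadjusted p under 0.05. The gene was Hoxb13, the most posterior HoxB gene, known from tail and prostate. It had 1.07, 40.0 and 17.5 TPM in JEGS on days 2, 4 and 6, which are 2, 100 and 38 counts. In the 32 leave-out libraries it was never above 5.33 TPM, and that value was on day 5 without Jdp2. The day 4 and day 6 libraries of JEGS therefore stood above all leave-out libraries and the day 2 library did not. The log2 change against the mean of the 4 arms was 3.96 ± 0.43 (edgeR adjusted p = 7.67e-05), and it was called in every alternative run. Against single arms the change was 4.2 ± 0.69 versus the arm without Esrrb (adjusted p = 0.0017), 4.30 ± 0.68 versus without Glis1 (adjusted p = 0.000409), 3.55 ± 0.63 versus without Jdp2 (adjusted p = 0.0058) and 3.78 ± 0.62 versus without Sall4 (adjusted p = 0.00052). These comparisons share the 3 JEGS libraries. Without the day 4 library of JEGS the calls against the arms without Esrrb and without Jdp2 were lost, and the call against the arm without Jdp2 was also lost without that arm's day 4 library. The lowest changes over the alternatives were 2.63 and 2.32 in these 2 contrasts. The count of members called against the mean of the arms was 2 when the day 4 library without Glis1 was left out.

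**Figure D4:**
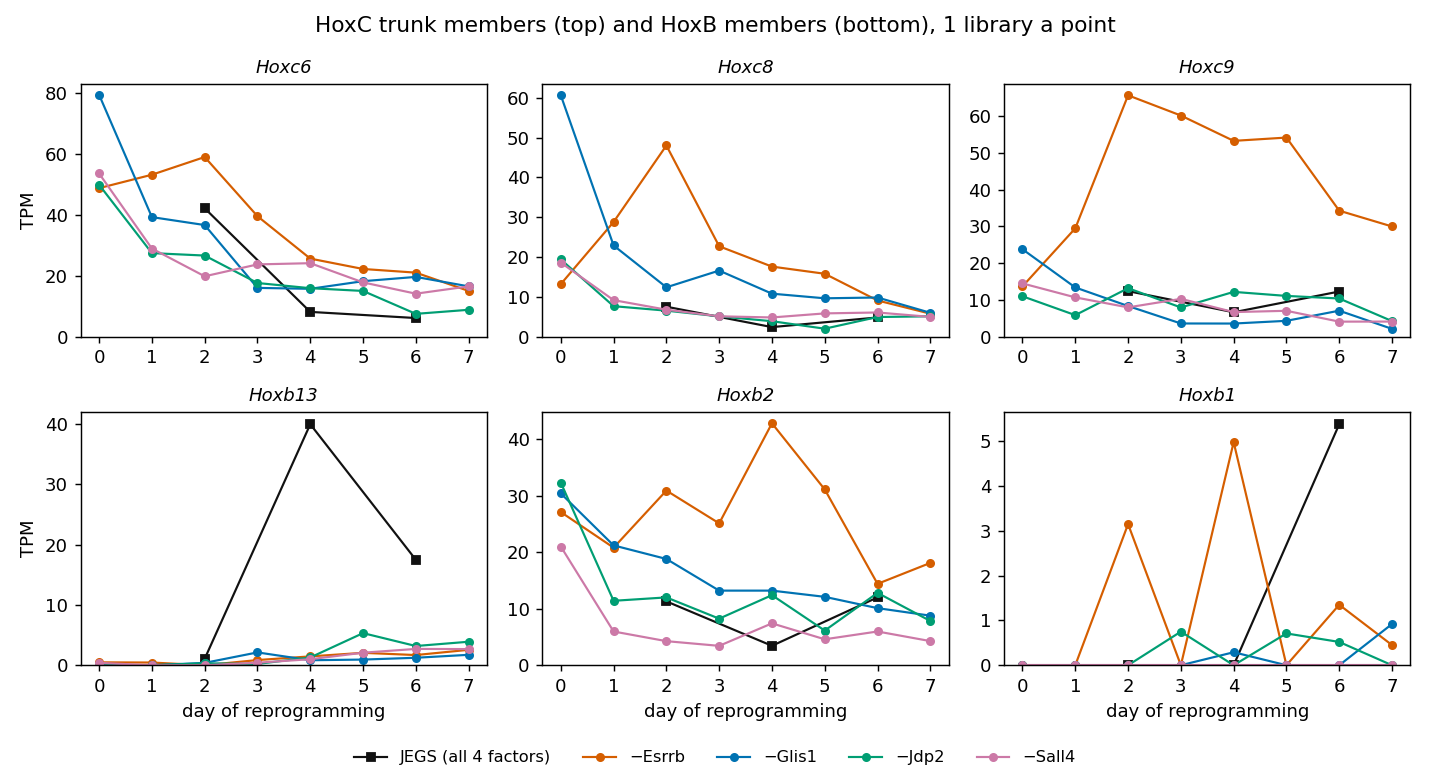
Level in TPM of trunk HoxC members (top) and of Hoxb13, Hoxb2 and Hoxb1 (bottom) against day of reprogramming, 1 library a point, joined within an arm. Hoxc9 without Esrrb reaches 65.7 TPM on day 2, Hoxb13 in JEGS reaches 40.0 TPM on day 4, and Hoxb1 has its highest value in JEGS on day 6.

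Set against single arms, Hoxd10 in JEGS lay between the arms without Glis1 and without Esrrb. Of the 5 HoxD genes of groups 9 to 13, 3 were called lower in JEGS than without Glis1 and 1, Hoxd10, higher in JEGS than without Esrrb. Hoxd10 had 14, 11.9 and 8.57 TPM in JEGS on days 2, 4 and 6, against 28.4, 36.5 and 29.2 TPM without Glis1 and 5.52, 0.61 and 0.52 TPM without Esrrb on the same days. All 3 JEGS libraries lay below those without Glis1 and above those without Esrrb. The log2 change of JEGS was -1.64 ± 0.37 against the arm without Glis1 (edgeR adjusted p = 0.00492) and 2.53 ± 0.52 against the arm without Esrrb (adjusted p = 0.00722). Hoxd12 had 3.69, 1.03 and 0.79 TPM in JEGS, against 16.6, 10.5 and 7.87 TPM without Glis1 and 8.11, 3.87 and 3.32 TPM without Sall4. Its change was -2.91 ± 0.44 against the arm without Glis1 (edgeR adjusted p = 0.000258) and -1.67 ± 0.45 against the arm without Sall4 (adjusted p = 0.0137, lost without the day 4 or the day 6 library of JEGS or the day term). Hoxc9 had 12.4, 6.65 and 12.3 TPM in JEGS, against 65.7, 53.3 and 34.3 TPM without Esrrb, a change of -2.17 ± 0.30 (edgeR adjusted p = 0.00044).

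In all, JEGS against the arm without Esrrb gave 8 called members, where 6.63% of all genes were called; 3 were higher, against 4.04% of all genes, and 5 lower, against 2.6%. Hoxc8 was lower with 7.53, 2.41 and 4.83 TPM in JEGS against 48.0, 17.6 and 9.09 TPM without Esrrb, and this call was lost without the day 2 library of the arm without Esrrb, with changes of -2.54 to -1.61. The count was 3 without the day 4 library of JEGS, and 5 and 4 without the day 2 and the day 4 library of the arm without Esrrb. Of these 8 calls 2 held under every alternative, and that of Hoxd8 was lost in 14 of 20. JEGS against the arm without Glis1 gave 9, where 19.9% of all genes were called; 2 were higher, against 9.86%, and 7 lower, against 10% of all genes. That count was 5 without the day 4 or the day 6 library of that arm, and 4 of the 9 calls held under every alternative. JEGS against the arm without Jdp2 gave 1, Hoxb13, where 2.82% of all genes were called and 0.819% were higher, and 0 without the day 4 library of either arm; 2 members had an unadjusted p under 0.05 in that contrast. JEGS against the arm without Sall4 gave 5, where 23.8% of all genes were called; 4 were higher, against 11.9%, and 1 lower, against 11.9%. That count was 3 without the day 4 or day 6 library of JEGS or the day 4 or day 6 library of the arm without Sall4. Of these 5 calls 1, that of Hoxb13, held under every alternative. Hoxb1 had 11 counts on day 6 of JEGS, which is 5.38 TPM, and none on days 2 and 4. Hoxd1 and Hoxd4 were also highest in JEGS on day 6, with 3.33 and 5.64 TPM, and at 0 in JEGS on days 2 and 4.

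With days in induction medium, most members that changed fell. The mean of the 4 arms' linear slopes over days 0 to 7 was called in 22 of the 38 members tested, against 31.2% of all genes; 21 were lower, against 15.8% of all genes, and 1 higher, against 15.4%. The median slope of the members was -0.16 log2 units per day, against 0.01 for all genes. In the same fit 12 of 14 fibroblast markers fell, with a median of -0.28, and the part of fibroblast RNA in the Hox slopes was not tested. The steepest falls were those of Hoxc11, with -0.35 ± 0.10 per day (edgeR adjusted p = 0.00615, levels of 0 to 4.8 TPM in the leave-out arms, and not called on days 1 to 7 alone), Hoxc5 with -0.32 ± 0.04 (adjusted p = 7.4e-07) and Hoxd13 with -0.32 ± 0.03 (adjusted p = 5.25e-08). Hoxc6 fell by 0.29 per day (SE 0.02, edgeR adjusted p = 9.52e-10). It had 15, 16.5, 8.82 and 16.5 TPM on day 7 without Esrrb, Glis1, Jdp2 and Sall4, against 48.7, 79.3, 49.8 and 53.5 TPM on day 0 of the same arms. The day 7 level was below the day 0 level in 4 of 4 arms.

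In the arms without Glis1, without Jdp2 and without Sall4, part of the fall lay between day 0 and day 1. On day 1, 16 of 35 members with a count on either day were below their day 0 level without Esrrb, 26 of 35 without Glis1, 23 of 37 without Jdp2 and 26 of 38 without Sall4. Without Esrrb 19 members were above day 0, and the sum over members went from 383 to 471 TPM. On day 7 the members below day 0 were 22 of 36, 33 of 39, 27 of 37 and 28 of 38 in the same order of arms. These counts were not made for all genes, so they have no share of all genes beside them. On days 1 to 7 alone, an alternative chosen after the data were seen, 16 members had a called fall and 3 a called rise, against 2219 falls and 2356 rises among all genes. The falls of Hoxa3, Hoxa6, Hoxb2, Hoxb3, Hoxc11 and Hoxd8 were not called on those days. Hoxb13 was the member that rose over days 0 to 7, by 0.60 ± 0.09 per day (edgeR adjusted p = 1.03e-05). It had 2.56, 1.73, 3.9 and 2.68 TPM on day 7 without Esrrb, Glis1, Jdp2 and Sall4, against 0.48, 0, 0 and 0.39 TPM on day 0. The members without a call over days included the posterior HoxA genes, Hoxa9, Hoxa10, Hoxa11 and Hoxa13, the anterior genes Hoxa2, Hoxa4, Hoxb1 and Hoxc4, and Hoxb7, Hoxb9, Hoxc12, Hoxc13, Hoxd3, Hoxd4 and Hoxd9.

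**Figure D5:**
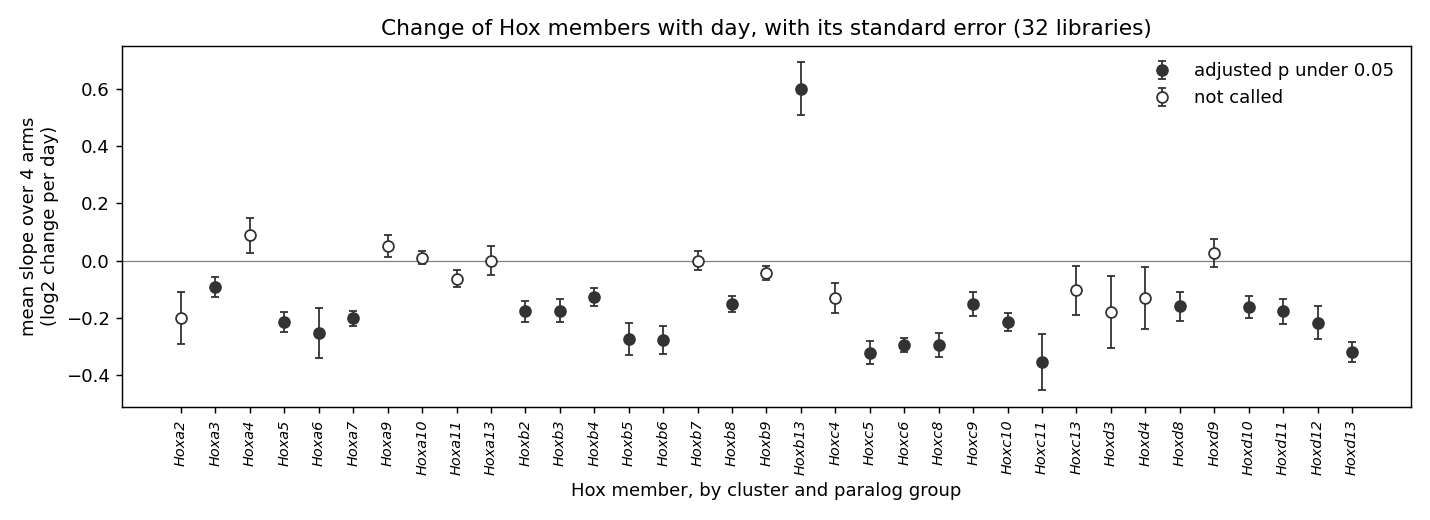
Mean over the 4 leave-out arms of the linear slope with day, in log2 units per day, for the members described here other than Hoxb1 and Hoxc12, in the order of clusters and paralog groups, with bars of 1 SE; filled points passed an adjusted p of 0.05. Of the 22 filled points, 21 lie below 0 and Hoxb13 lies at 0.60.

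The course of 4 members over days differed between arms. Hoxd13 was called in 3 of the 4 arms. It went through 33.0, 17.8, 14, 8.71, 1.69, 3.81, 2.58 and 1.25 TPM on days 0 to 7 without Jdp2 and through 26.5, 22.2, 19.0, 15.9, 22.2, 19.7, 15.2 and 15.2 TPM without Glis1. Without Sall4 it had 17.6, 12.5, 9.9, 14.2, 12.5, 14.9, 13.2 and 9.61 TPM. Without Esrrb, where no slope difference was called for it, Hoxd13 had 11.4, 18.6, 20.8, 7.59, 3.01, 5.42, 3.34 and 1.13 TPM. The gene was thus low from day 4 on both without Jdp2 and without Esrrb. It stayed at 15.2 TPM or more without Glis1 and at 9.61 TPM or more without Sall4. Its slope differed from the mean of the other 3 arms by -0.46 ± 0.08 per day without Jdp2 (edgeR adjusted p = 0.0111), 0.33 ± 0.07 without Glis1 (adjusted p = 0.00932) and 0.37 ± 0.07 without Sall4 (adjusted p = 0.00773). The call without Jdp2 was lost on log2(day + 1) and when the day 7 library of that arm was left out, with slope differences of -1.02 to -0.37 over the alternatives. Those without Glis1 and without Sall4 were lost with limma, and that without Glis1 also on log2(day + 1). Without Jdp2 1 member was called lower, against 0.0221% of all genes lower, 0.105% higher and 0.127% called. Without Glis1 2 were called higher, against 2.07% of all genes higher, 1.48% lower and 3.55% called. Without Sall4 1 was called higher, against 0.739% of all genes higher, 1.1% lower and 1.84% called. At an unadjusted p under 0.05 the counts were 4 without Jdp2, 9 without Glis1 and 3 without Sall4. In JEGS Hoxd13 had 20.3, 8.09 and 2.83 TPM on days 2, 4 and 6.

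Without Esrrb, Hoxa9 had 17, 14.1, 20.9, 22.1, 38.2, 53.2, 57.9 and 31.7 TPM on days 0 to 7, and Hoxa10 had 23.1, 26.2, 42.5, 30.9, 46.2, 46.2, 79.0 and 47.9 TPM. Both were highest on day 6. Their slopes were above the mean of the other 3 arms by 0.37 ± 0.08 (edgeR adjusted p = 0.00719) and 0.29 ± 0.05 per day (adjusted p = 0.000936), where 6.64% of all genes were called, 2.69% higher and 3.95% lower. The call of Hoxa9 was lost with limma. Hoxd10 had a called slope difference of 0.29 ± 0.08 without Glis1 (edgeR adjusted p = 0.0403), with 18.9 TPM on day 0 and 28.3 to 37.2 TPM later, and that call was lost in 18 of 38 alternatives, with values of 0.21 to 0.73.

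Genes that act with or upstream of the clusters were read from lists of textbook members. Their counts stand beside 20.9% of all genes higher and 21.9% lower without Esrrb, and 20% and 16.3% without Glis1. For the arm without Jdp2 the shares were 14.4% and 9.13%, and for that without Sall4 22.3% and 19.5%. No list was tested as a whole. The Cdx genes, which activate trunk Hox genes in the embryo, the ParaHox genes and the cluster-end genes Evx1 and Evx2 made a list of 8, of which 6 passed the filter. Without Esrrb 5 of the 6 were higher and 0 lower, without Glis1 and without Jdp2 1 was higher and 0 lower, and without Sall4 0 were higher and 3 lower. They rest on few reads. Evx1, which lies next to Hoxa13, had 77 counts over 8 libraries without Esrrb, 33 without Glis1, 21 without Jdp2 and 1 without Sall4. Cdx1 averaged 14 ± 14.3 TPM without Esrrb, 7.28 ± 10.0 TPM without Glis1, 11.6 ± 8.72 TPM without Jdp2 and 1.14 ± 0.90 TPM without Sall4 (SD, n = 8 each), and ran from 9.03 to 76.3 TPM in JEGS. It was lower without Sall4 by a log2 change of -2.81 (edgeR adjusted p = 0.000153) and higher in JEGS than in the mean of the arms by 2.17 (adjusted p = 0.0129). Cdx2 was also higher in JEGS against that mean (adjusted p = 0.023), with 40 counts in the 3 libraries and a range of 0 to 15.7 TPM. Evx2, which lies next to Hoxd13, was higher without Glis1 by 1.59 (adjusted p = 0.0196), with 35 counts over the 8 libraries, 7 without Esrrb, 14 without Jdp2 and 22 without Sall4.

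Retinoic acid switches on anterior Hox genes in the embryo. Of 17 tested genes for its synthesis, breakdown and receptors, 11 were higher and 1 lower without Esrrb, against 20.9% and 21.9% of all genes. Without Glis1 2 were higher and 7 lower, without Jdp2 5 and 4, and without Sall4 6 and 5. Aldh1a3, a retinoic acid synthesising enzyme, ran from 19.5 to 645 TPM without Esrrb, 2.47 to 15.3 TPM without Glis1, 7.11 to 318 TPM without Jdp2 and 0.9 to 4.79 TPM without Sall4. Its log2 change was 3.86 without Esrrb (edgeR adjusted p = 1.46e-09) and -4.68 without Sall4 (adjusted p = 5.61e-08).

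Of the 26 Polycomb group genes, whose products silence the clusters, 10 were higher and 1 lower without Esrrb, 5 higher and 10 lower without Glis1, 10 higher and 0 lower without Jdp2, and 2 higher and 14 lower without Sall4. The shares of all genes given above for each arm apply to these counts and to the trithorax and TALE counts below. Cbx2, a subunit that reads the repressive histone mark, changed by 2.43 without Esrrb (edgeR adjusted p = 1.08e-08), -1.52 without Glis1 (adjusted p = 0.000392), 0.89 without Jdp2 (adjusted p = 0.0124) and -1.80 without Sall4 (adjusted p = 4.7e-05) on the log2 scale. Ezh2, the histone methyltransferase, changed by 1.03 without Esrrb (adjusted p = 1.01e-05) and -1.19 without Sall4 (adjusted p = 8.07e-06). Of the 15 trithorax group and histone demethylase genes, which counter this silencing, 8 were higher and 0 lower without Esrrb, 1 higher and 4 lower without Glis1, 3 higher and 1 lower without Jdp2, and 1 higher and 8 lower without Sall4. Among the 9 TALE cofactors, which bind DNA together with Hox proteins, 4 were higher and 1 lower without Esrrb, 1 and 3 without Glis1, 2 and 1 without Jdp2, and 0 and 2 without Sall4. Without Esrrb, Pknox2 changed by 1.2 (edgeR adjusted p = 3.91e-05), Meis3 by 1.10 (adjusted p = 0.000112) and Meis1 by -0.75 (adjusted p = 0.000103). Without Glis1, Meis3 changed by -0.91 (adjusted p = 0.00361), Pbx2 by -0.81 (adjusted p = 8.68e-05) and Meis1 by 0.67 (adjusted p = 0.000102). 

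Limb and trunk transcription factors outside the clusters moved in both directions. The shares of all genes given above for each arm apply to this list and to the flanking genes. Over days, 15.4% of all genes rose and 15.8% fell. Of 37 tested, 15 were higher and 6 lower without Esrrb, 9 and 9 without Glis1, 7 and 6 without Jdp2, and 8 and 14 without Sall4, and over days 2 rose and 14 fell. Msx1, a limb bud gene, was higher without Esrrb by 3.80 (edgeR adjusted p = 2.39e-15). Of 15 tested genes that flank the clusters, 5 were higher and 5 lower without Esrrb, 6 and 2 without Glis1, 2 and 1 without Jdp2, and 4 and 4 without Sall4. Mtx2, beside the anterior end of HoxD, was higher by 0.59 without Glis1 (edgeR adjusted p = 0.000128), against the changes of 1.19 to 2.72 of Hoxd10 to Hoxd13 at the other end. Among non-coding transcripts of the clusters, Hoxa11os, the antisense transcript of Hoxa11, ran from 4.17 to 9.14 TPM without Sall4, against 17.4 to 80.9 TPM without Esrrb, 9.7 to 38.4 TPM without Glis1 and 7.77 to 31.0 TPM without Jdp2. Strand use in counting is not given in the sources used here, so reads of Hoxa11 and Hoxa11os cannot be told apart where they overlap.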

How the data were processed

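RNA of 35 libraries was sequenced. Per the submitters' processing notes the authors used bcl2fastq, Bowtie2 and RSEM with mm10; versions and strand are not given in the sources used here. The deposited tables hold, per gene, RSEM expected counts, TPM (length-scaled, set by the authors to a fixed sum per library) and FPKM, which the authors deposited and which was not used. Gene symbols and loci came from GENCODE vM21. The members and gene lists were chosen with earlier results of these data known.

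Expected counts were rounded and tested with edgeR 4.0.16 (TMM, quasi-likelihood F test, R 4.3.3) on genes with at least 1 CPM in 3 libraries of a fit. Of 3 fits, the first used the 32 leave-out libraries with arm and day as factors, the second the 15 libraries of days 2, 4 and 6, and the third a linear day slope per arm; p-values were adjusted by Benjamini-Hochberg over all genes tested, with a threshold of 0.05, and an SE is the log2 change divided by the root of F. Levels are TPM. All 3 fits were tested on simulated counts: at a log2 change of 1, 90 of 100 changed genes were recovered without Glis1, among 18135 genes, and 31 of 100 in JEGS, among 16603. At a log2 change of 2 these counts were 100 and 97. For the mean day slope, 99 of 100 were recovered at 0.25 log2 units per day and 100 of 100 at 0.5. Changed genes were drawn only from the better counted genes, and every gene was given the same spread. These counts therefore do not describe members of few counts. A gene is named if it is a member, or for other lists if it was called and stood among those with the largest changes. Alternatives were DESeq2 1.42.0, its size factors, no filter, limma 3.58.1 on log2(TPM + 1), no day term, all 35 libraries, days 4 to 7, log2(day + 1), days 1 to 7 (chosen after the data were seen) and leaving out each library. Counts of members and lists cover every gene tested, though the values of some genes are not reported here.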

Additional observations from a re-analysis of the deposited data

Results flagged for a closer look

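Among 26 members with a mean of at least 5 TPM, 104 groups of 8 libraries (1 member in 1 arm) were examined for a single value far from the other 7, by Dixon's ratio of the gap to the range. It found 25, of which 20 were high values on day 0. The cut-off is set to flag about 1 in 20 groups of independent values. Here the 8 values are different days of a course and the members share libraries, so the 25 cannot be set against that rate. On day 0 without Glis1 the flagged values were Hoxa9 with 44.0 TPM, Hoxb6 with 27.6 TPM, Hoxc6 with 79.3 TPM, Hoxc8 with 60.6 TPM, Hoxc10 with 53.3 TPM and Hoxd8 with 20.3 TPM. On day 0 without Jdp2 they were Hoxb2 with 32.3 TPM, Hoxb6 with 20.9 TPM, Hoxc4 with 12.9 TPM, Hoxc5 with 16.8 TPM, Hoxc6 with 49.8 TPM, Hoxc8 with 19.4 TPM and Hoxd11 with 26 TPM. On day 0 without Sall4 they were Hoxb2 with 21.0 TPM, Hoxb3 with 12.3 TPM, Hoxb6 with 18.2 TPM, Hoxc4 with 10.5 TPM, Hoxc6 with 53.5 TPM and Hoxc8 with 18.6 TPM. On day 0 without Esrrb the only one was Hoxd11 with 19.4 TPM. The other 5 were Hoxa9 with 11.3 TPM and Hoxa10 with 23.7 TPM on day 1 without Sall4, Hoxb7 with 17.2 TPM on day 2 without Sall4, Hoxa11 with 28.0 TPM on day 1 without Jdp2, and Hoxa10 with 79.0 TPM on day 6 without Esrrb.

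The slope over days differed between an arm and the mean of the other 3 in 6 cases, by the interaction term. In log2 units per day the differences were 0.37 for Hoxa9 and 0.29 for Hoxa10 without Esrrb, 0.29 for Hoxd10 and 0.33 for Hoxd13 without Glis1, -0.46 for Hoxd13 without Jdp2 and 0.37 for Hoxd13 without Sall4.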

How the results depend on the processing

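Of 114 calls of members in 14 comparisons, 62 held under every alternative run and 52 were lost under 1 or more, and no member changed direction. Counts of called members that moved by over 1.5 times were these. Without Jdp2 the count of 7 was 11 with DESeq2 and 11 with no filter. JEGS against the mean of the arms gave 2 with no filter, against 1. JEGS against the arm without Esrrb gave 5 without the day term, against 8. JEGS against the arm without Jdp2 gave 0 with limma and 0 without the day term, against 1. The 2 slope differences without Esrrb were 4 with DESeq2, 1 with limma and 4 on log2(day + 1), and the 2 without Glis1 were 1 with no filter, 1 with limma and 1 on days 1 to 7 alone. The slope difference without Jdp2 gave 0 on log2(day + 1), and that without Sall4 gave 0 with limma. Leaving out 1 library at a time gave 19 to 24 calls without Esrrb, 15 to 17 without Glis1, 5 to 9 without Jdp2 and 14 to 18 without Sall4. It gave 1 to 2 for JEGS against the mean, 3 to 9 against the arm without Esrrb, 5 to 10 against the arm without Glis1, 0 to 1 against the arm without Jdp2 and 3 to 5 against the arm without Sall4. For slopes it gave 20 to 23 for the mean, 2 to 3 without Esrrb, 1 to 3 without Glis1, 0 to 1 without Jdp2 and 1 to 2 without Sall4, where the 2 came without the day 0 library of the arm without Jdp2. The cause of these differences was not tested. No paired analysis was possible because no arm has more than 1 library of a day and the numbers that arms share are days, which the fits hold as a term. With 3 JEGS libraries and members of a few counts, differences of 1 log2 unit in JEGS were mostly not detectable at this depth.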
